A study of Drosophila melanogaster with 3 samples.

Results

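The deep intronic summits are the Noc peaks that lie inside a gene, in none of its annotated exons, and more than 3000 bp from the nearest annotated transcription start site (TSS) of any gene. They were chosen by position alone from the 7201 summits of the authors' IDR list. The irreproducible discovery rate (IDR) judges how alike peaks rank between lists, and a listed peak need not be found in every replicate. The deep intronic summits number 1094, or 15.2% of the IDR list (95% Wilson interval 14.4% to 16.0%). The list holds the 7201 pooled peaks of highest signal value, the authors' own measure of peak strength, whose scale is unknown here. The data are chromatin immunoprecipitation with sequencing (ChIP-seq) of 3 biological replicates of whole Drosophila melanogaster larvae of 1 group. The animals come from a transgenic insertion line that stably carries the noc gene product joined at its C-terminus to GFP, and an anti-GFP antibody was used for the precipitation. Males and females were pooled, and the age in the labels is 48 days, which is long for a larva and is given here as labelled. Fragments of 200 to 800 bp were made by sonication. No untagged or otherwise treated group was analysed here, and since whole animals were used, a site bound strongly in few cells and one bound weakly in many cannot be told apart.

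Noc (no ocelli) is a zinc finger protein of the NET family, whose other fly member is Elbow B, and it is known for roles in ocelli, tracheae and the distal parts of appendages. Long introns of developmental genes often hold enhancers, sequences that act on a promoter from a distance and are bound by transcription factors.

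Sequences around strong deep intronic summits are shown as examples of the base composition and, in some of them, of the short words described further on. They are the RefSeq dm6 plus strand from 50 bp before to 50 bp after the summit, for the 8 strongest members on the chromosomes 2L, 3L, 3R and X. Capitals mark TAATTA, the core word of many homeodomain proteins, and AGATAA or TGATAA on either strand (as TTATCT or TTATCA), the word read by GATA factors.
Kdm2: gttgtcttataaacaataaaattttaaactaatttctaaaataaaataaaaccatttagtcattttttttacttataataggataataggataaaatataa
mnb: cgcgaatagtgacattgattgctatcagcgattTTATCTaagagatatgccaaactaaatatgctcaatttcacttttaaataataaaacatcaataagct
trx: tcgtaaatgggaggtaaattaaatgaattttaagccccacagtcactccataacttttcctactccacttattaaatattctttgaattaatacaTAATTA
cic: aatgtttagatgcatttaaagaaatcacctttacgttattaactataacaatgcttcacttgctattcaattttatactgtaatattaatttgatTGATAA
CG32486: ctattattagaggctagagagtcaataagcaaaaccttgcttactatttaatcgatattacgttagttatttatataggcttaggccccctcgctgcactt
prage: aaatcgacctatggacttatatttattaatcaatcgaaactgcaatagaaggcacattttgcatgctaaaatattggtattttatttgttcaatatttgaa
Dad: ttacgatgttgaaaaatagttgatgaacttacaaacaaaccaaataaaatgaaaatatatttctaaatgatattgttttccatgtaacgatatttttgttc
simj: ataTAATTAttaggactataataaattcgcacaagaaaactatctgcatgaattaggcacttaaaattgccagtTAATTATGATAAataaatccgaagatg
The windows lie at chr3R:9057476-9057576 in Kdm2, chrX:17880383-17880483 in mnb, chr3R:14283818-14283918 in trx, chr3R:20261571-20261671 in cic, chr3L:3060775-3060875 in CG32486, chrX:1850014-1850114 in prage, chr3R:17065140-17065240 in Dad and chr3L:10682964-10683064 in simj. Of the 8 windows, 4 hold a marked word, and simj holds 3 in 1 window. The Kdm2 window, with the highest signal of the 8, holds none and has a GC share of 14.9%.

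The strongest member of all lay on 2R in Hr3, which encodes a nuclear receptor of the ecdysone response, and shares its intron position with CG12912 and CG46321. Its signal value was 4055, and it held ranks 11, 13 and 28 in replicates 1, 2 and 3. It stood 7863 bp from the nearest start site, in a first intron of 12369 bp. The member in Kdm2, a histone demethylase gene, followed with 3635 and ranks 29, 31 and 23. The member in mnb, a protein kinase gene, had a signal of 3201 and ranks 41, 53 and 46. In trx, the histone methyltransferase gene trithorax, the value was 2799 and the ranks were 60, 65 and 86. The replicates ranked these 4 alike, within the first 100 peaks of each list. The next members were in cic, an HMG-box repressor gene of the Egfr pathway, at 2497, in CG32486 at 2415, in prage at 2307 and in Dad, the inhibitory Smad gene, at 2299. The cic member ranked 71, 160 and 72, so replicate 2 placed it lower than the other two.

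Below these came simj, a gene for a subunit of the NuRD chromatin complex, at 2241, hzg at 2205, raw, a gene that restrains JNK signalling, at 2072, and Hr4, another ecdysone-response nuclear receptor, at 2059. Further hosts among the 25 strongest members were CG9328 at 1837, Nuak at 1814, PRAS40 at 1792, Pdp1 at 1707, CHES-1-like, a forkhead gene, at 1681, CG34417 at 1653, Eip75B at 1618, MESR3 at 1579 and l(3)L1231 at 1548. The gene tara held 2 of the 25, at 1938 and 1749, and Smr, a corepressor gene, held 2, at 1681 and 1513. All 25 were found in all 3 replicates, where found means a summit within 100 bp among the 7201 strongest peaks of that replicate.

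As a class the deep intronic summits were not the strongest. Their median signal value was 334 (quartiles 261 and 490), against 371 for summits in introns within 500 to 3000 bp of a TSS (near-TSS introns, 1689 summits), 374 within 500 bp of a TSS (promoters, 3526), 342 between genes (685) and 369 in exons (207). Only 6 of the 100 highest IDR summits were deep intronic (6%, interval 2.78% to 12.5%), against 326 of the 1801 lowest (18.1%, interval 16.4% to 19.9%). Each replicate's own list gave 7% in its first 100. In the lowest bin the replicates gave 17.2%, 21.5% and 17.0%. The share went on rising below the IDR list, to 21.8% at pooled ranks 7202 to 15000 and 27.9% at ranks 15001 to 30000, while the promoter share fell to 37.5% and then 23.5% from 56.9% in the first 1000. Deep intron, the territory that meets the same rule, makes up 26.9% of the chromosome arms.

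**Figure D1:**
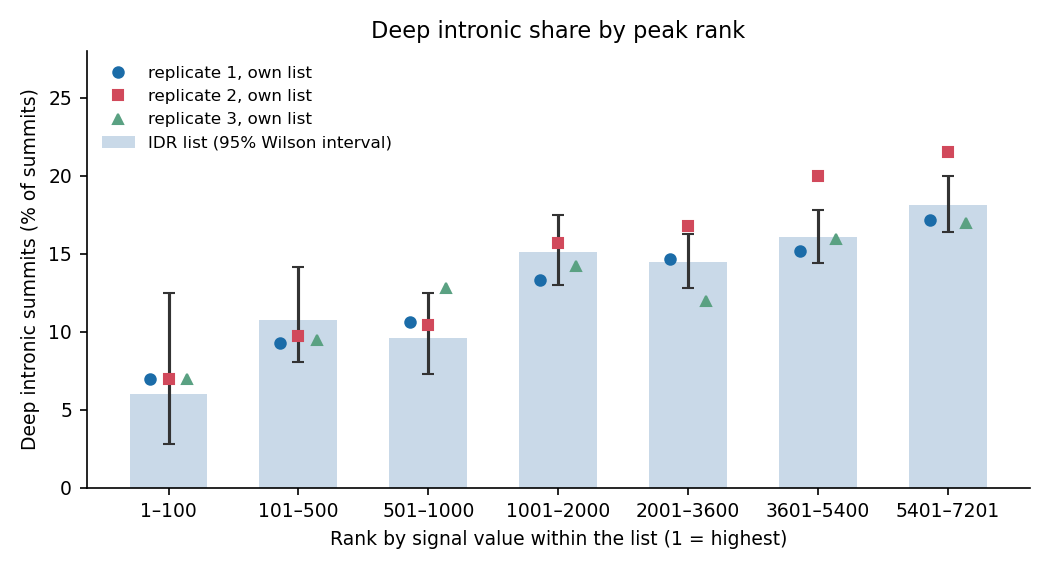
Deep intronic share of summits (%, y axis) in bins of rank by signal value (x axis); bars are the IDR list with 95% Wilson intervals and symbols are the 3 replicates' own lists of equal length. The share is 6% in the first 100 and 18.1% in the last bin, and replicate 2 lies highest of the replicates in the 4 bins of lowest signal.

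Over the whole lists of 7201, the replicates held 1047, 1270 and 1036 deep intronic summits, or 14.5%, 17.6% and 14.4% (15.5% ± 1.83, SD, n = 3). Replicate 2 stood apart with the most, and promoter summits were also found least often in it (65.2%, against 84.2% and 79.9% in replicates 1 and 3). The peak lists carry no read totals, so no depth can be set beside this. Intervals given here cover counting error only.

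Of the 1094 members, 79.3%, 73.4% and 75.8% were found in replicates 1, 2 and 3 (76.1% ± 2.94, SD, n = 3). The IDR list was itself made from these replicates, so the shares describe agreement and are not an independent check. All 3 replicates held 548 members (50.1%), 329 were in 2, 197 in 1 and 20 in none. Agreement followed signal. With the members in 4 groups of like size by signal, 89.4% of the 274 strongest (490 and above) were in all 3 replicates. In the next groups it was 71.9% and 34.1%, and in the weakest, which ends at 218, 4.76%. The groups use the pooled signal of the same replicates, and each replicate list was cut to the length of the IDR list. Members near the lower end of the IDR list can thus easily fall past a replicate's cut, so part of this fall follows from the rule. Against all peaks of each replicate list, 93.7% of members were found on average. The 4 groups were not compared in that way.

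Promoter summits were found in 76.5% on average, and deep intronic minus promoter gave −4.98, 8.23 and −4.17 percentage points in replicates 1, 2 and 3. The sign was turned by replicate 2 alone, and the mean of −0.31 ± 7.40 (SD, n = 3) lay within that spread (two-sided exact sign-flip permutation test, p = 1). Against near-TSS introns the differences were −2.87, 2.47 and −3.20 points (mean −1.20 ± 3.18, exact permutation p = 0.5). Against intergenic summits they were −0.75, −4.12 and 2.49 points (mean −0.79 ± 3.31, exact permutation p = 0.75). Against exonic summits they were −3.84, 8.67 and −9.73 points (mean −1.64 ± 9.39, exact permutation p = 0.75). The smallest p that 3 replicates allow is 0.25, so none of these comparisons could reach 0.05.

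**Figure D2:**
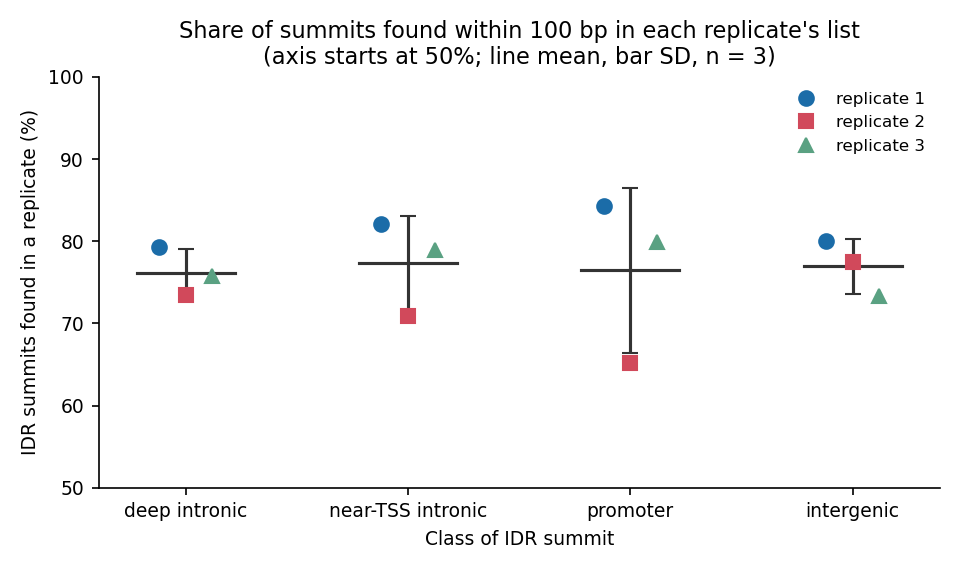
Share of IDR summits found in each replicate's equal-length list (%, y axis, starting at 50%) by class of summit; symbols are replicates, the line is the mean and the bar the SD of 3. Deep intronic shares run from 73.4% to 79.3%, and the promoter shares spread from 65.2% to 84.2%.

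Deep intron covers 36.1 Mb of the arms and held 30.3 members per Mb, and the replicates' own lists gave 31.0 ± 3.66 (SD, n = 3). The density was 38.3 per Mb on 2L, 32.1 on X, 31.2 on 3L, 28.9 on 2R and 26.1 on 3R. The replicates of 1 arm differ by an SD of 1.80 to 5.83 per Mb, so neighbouring arms in this order overlap. The deep intron of 3R, the arm of lowest density among these, includes that of Myo81F (1927 kb) and Pzl (696 kb), which hold no members. Long genes without members also lie on 3L (lovit, 423 kb), 2R (CG17684, 384 kb) and X (Ten-a, 195 kb). Whether the order of the arms holds without such genes was not tested. Chromosome 4 held 0 members in 0.374 Mb of deep intron and 5 IDR summits in all. Of deep intron, 24.8% is soft-masked as repeat, as were 22.2% of member summits. The density over unmasked bases was 31.4 per Mb.

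Within deep intron the summits thinned out with distance from start sites. Between 3 and 5 kb there were 437 members at 56.2 per Mb (replicates 55.5 ± 3.31, SD, n = 3), and between 5 and 10 kb 431 at 38.9 (40.1 ± 4.52). From 10 to 20 kb there were 173 at 20.2 per Mb (21.8 ± 4.62), and beyond 20 kb 53 at 6.13 (6.48 ± 2.03). The replicate ranges of adjoining bins did not overlap. The median distance was 5845 bp for members and 9475 bp for deep intron itself. Deep intron includes that of long genes without members, such as Myo81F (1927 kb) and Pzl (696 kb). The densities and the median were not recomputed without them. The farthest member stood 47666 bp from a TSS. The median signal differed little between these bins, from 326 to 348. The members just inside the 3000 bp limit were in vib (3001 bp, signal 408), Men (3004 bp, 286), sbb (3005 bp, 957), siz (3005 bp, 740) and kay (3010 bp, 228). Those just outside were in SNF4Agamma (2995 bp, 522), CG5910 (2994 bp, 271), cad (2989 bp, 250), Imp (2989 bp, 220) and Pfrx with CG14200 (2987 bp, 237).

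First introns held most of them. A first intron of some transcript of the host contained 660 members (60.3%, interval 57.4% to 63.2%), and the replicates' lists gave 60.7%, 59.5% and 60.9%. First introns make up 35.1% of deep intron. The difference was present at each distance, with 66.1% of members against 49.1% of deep intron at 3 to 5 kb, 61.0% against 42.6% at 5 to 10 kb, 50.9% against 32.2% at 10 to 20 kb and 37.7% against 15.7% beyond 20 kb. The host intron had a median length of 11640 bp. The nearest exon was a median of 2854 bp away. In 780 cases (71.3%) the nearest TSS belonged to a host gene, and in the others to a neighbour or a gene nested nearby, as for mnb, where it was CG12985. The 5′ end of the host was nearer than its 3′ end for 661 members (60.4%). Neither this share nor that of the nearest TSS was computed for deep intron itself, so no preference can be read from them.

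The members lay in 534 host genes, and 59 members lay in more than 1 gene. Of the 2901 protein-coding genes with any deep intron, 521 (18%) were hosts. A single member was held by 281 hosts, and 49 hosts with 5 or more together held 313 members (28.6%). Hosts were longer than the others, with a median of 26.9 kb against 11.6 kb and of deep intron 12.5 kb against 2.00 kb.

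The gene with the most was sbb (scribbler, also brakeless), a zinc finger corepressor gene at chr2R:18278198-18357296. It held 18 members, 13 of them found in all 3 replicates, with signals from 226 to 1155. The replicates' own lists held 18, 18 and 17, and all 18 members lay in a first intron. The gene hth (homothorax), which encodes the homeodomain partner of Extradenticle, followed with 14 members and 12, 16 and 9 in the replicates. Its members reached 753, 5 of the 14 were in all 3 replicates, and they spread over more than 100 kb of the gene.

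Among the other hosts of many members were tara, a SERTA-domain regulator gene, with 12 members and replicate counts of 12, 12 and 13, and px (plexus), a wing vein gene, with 12 members and counts of 9, 8 and 11. Eip75B, an ecdysone-induced nuclear receptor gene, held 12, but 10, 20 and 9 in the replicates, so replicate 2 held about double the count of either other one. Pdp1, a bZIP clock gene, bun, a TSC22-family gene, and Snoo, the Ski/Sno gene of TGF-beta signalling, held 11 each. PRAS40, a gene for an inhibitor of TORC1, held 9 within only 16.1 kb, at 8.11 per 10 kb of deep intron. The noncoding gene lncRNA:CR44999 held 9 (9, 17 and 6 in the replicates), and all of them also lie in another gene, 6 of them in CG12535 and 3 in Myc, a growth regulator gene.

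Further hosts were Raf, the Egfr-pathway kinase gene, msn, a Ste20-type kinase gene, tai, a coactivator gene of the ecdysone receptor, ftz-f1, a nuclear receptor gene, and elB, each with 8. The translational repressor gene eIF4EHP held 7. With 6 each followed cic, simj, Hr4, REPTOR, a bZIP gene under TORC1 control, ush, the FOG cofactor of GATA proteins, and CG14073. CG46467 and Glut4EF share their 6, since the genes overlap. REPTOR had the highest number per deep intron among the hosts of 6 or more, 9.75 per 10 kb, over 6.15 kb of deep intron. The replicates' lists held 5, 3 and 6 there, and 2 of the 6 members were found in all 3 replicates.

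**Figure D3:**
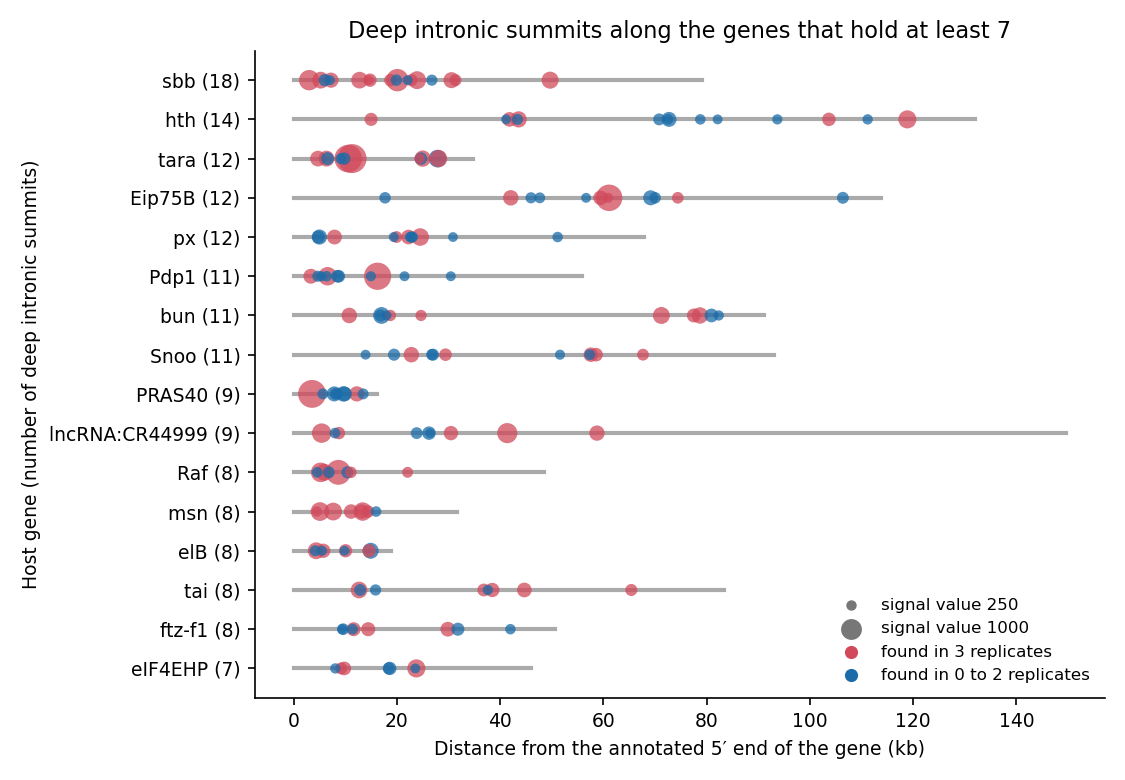
Positions of deep intronic summits along the 16 genes that hold at least 7, as distance from the annotated 5′ end (kb, x axis); grey lines span each gene, symbol area follows signal value, and red marks summits found in all 3 replicates. With steps of up to 5 kb joined, the summits form 1 group in PRAS40, msn and elB and 2 in tara and Raf, counting single summits. In hth they form 8 groups along the gene, 1 of which holds 4 summits within 2416 bp.

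The elB gene encodes Elbow B, the close relative of Noc. It held 8 members at signals of 229 to 655, all in a first intron, and the replicates held 7, 9 and 8. A promoter and a near-TSS intronic summit were also called in it. The strongest of its summits ranked 1436, 2394 and 1172 in the replicates. The noc gene itself is short and has no deep intronic summit, with 12 IDR summits inside it or within 5 kb and the strongest at 3498. The replicates held 9, 11 and 8 there.

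Members stood close to one another. Another member lay within 5 kb of 642 of them (58.7%, interval 55.7% to 61.6%), and the replicates' lists gave 60.0%, 60.8% and 60.5%. The share of summits with one of their own class within 5 kb was 59.6% for promoters, 55.9% for near-TSS introns, 51.4% between genes and 22.7% for the 207 summits in exons. Chains with steps of up to 5 kb made 227 clusters and left 452 single summits. The 20 clusters of 5 or more held 129 members. The median signal was 313 for single summits, 363 in clusters of 2 to 4 and 354 in larger ones. No 2 IDR summits are closer than 199 bp, and 90 neighbouring member pairs lie within 250 bp. Since 108 members share their called interval with another summit, part of the shortest spacing is between summits of 1 interval. Other close pairs lie in separate intervals that overlap, as in tara (chr3R:16253410-16253644 and chr3R:16253606-16253918). Such pairs were not counted, and keeping 1 summit per interval does not merge them.

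The largest cluster spanned 18581 bp of sbb (chr2R:18325948-18344529) with 12 members in 11 intervals and signals of 231 to 1155. Of these, 11, 12 and 9 were found in replicates 1, 2 and 3. PRAS40 held 9 in 9904 bp (chr2R:14484746-14494650), of which 8, 5 and 5 were found. The msn cluster held 8 in 11497 bp (chr3L:2570575-2582072), with 7, 8 and 7 found, and the elB cluster 8 in 10746 bp (chr2L:14394636-14405382), with 6, 5 and 5 found. The tara cluster held 7 in 6603 bp (chr3R:16230360-16236963), with 7, 7 and 4 found. Clusters of 7 were also present in Raf, Pdp1 and px. Of these 5 clusters, msn was the most alike across replicates, with at most 1 member lacking in any, while in the other 4 at least 1 replicate lacked 3 or more.

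Host genes carried a promoter summit more often than other genes with deep intron. An IDR summit lay within 500 bp of one of the gene's own start sites in 302 of the 521 protein-coding hosts (58.0%, interval 53.7% to 62.1%). Among the 2380 non-hosts it was 582 (24.5%, interval 22.8% to 26.2%). In the replicates' own lists the host shares were 56.8%, 52.2% and 63.8% and the non-host shares 26.2%, 25.6% and 25.9%. The difference of 31.7 ± 5.71 points (SD, n = 3) was positive in 3 of 3 replicates (two-sided exact sign-flip permutation test, p = 0.25, the smallest that 3 replicates allow). Since hosts are longer, genes were also compared within bins of deep intron. Up to 5 kb the shares were 57.0% and 28.2%, and from 10 to 20 kb they were 53.3% and 16.6%. Above 80 kb, 13 of 19 hosts (68.4%) and 2 of 38 non-hosts (5.26%) had a promoter summit. By the rule, each member lies more than 3000 bp from every start site, so these are separate summits.

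**Figure D4:**
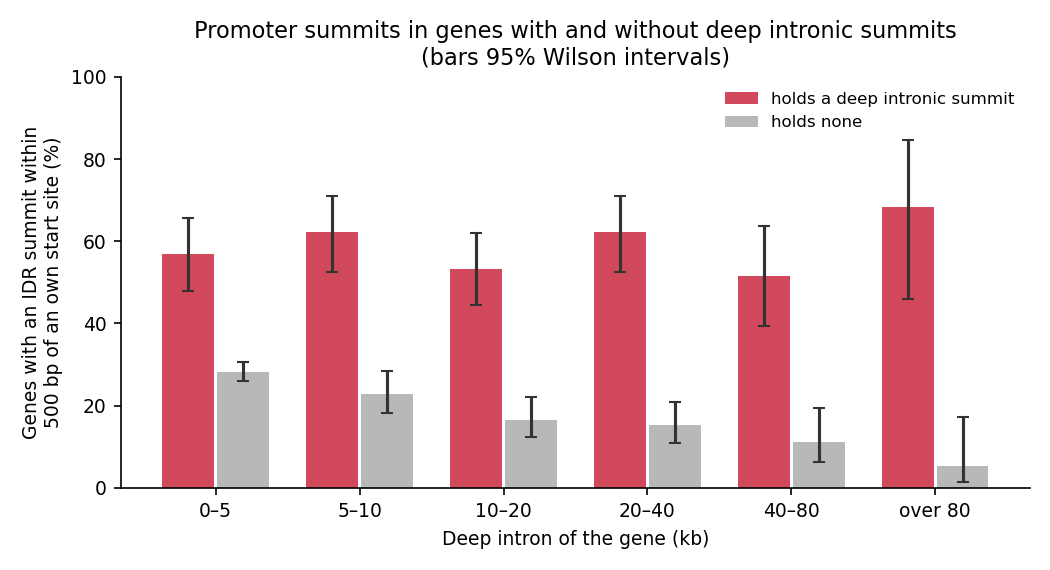
Share of protein-coding genes with an IDR summit within 500 bp of an own start site (%, y axis) in bins of the gene's deep intron (kb, x axis); red bars are genes that hold a deep intronic summit, grey bars genes that hold none, with 95% Wilson intervals. The red bars lie between 51.6% and 68.4%, and the grey bars fall from 28.2% to 5.26% as deep intron grows.

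Genes with more than 5 kb of deep intron held members more often, with 28.9% hosts from 5 to 10 kb against 6.76% up to 5 kb. Beyond 10 kb the share did not rise steadily. It was 35.0% from 10 to 20 kb, 33.7% from 20 to 40 kb and 41.1% from 40 to 80 kb. Above 80 kb it was 33.3%, against 18% in all. Of the 57 protein-coding genes above 80 kb, 38 still held none. Among them were Myo81F, Pzl and lovit, each with more than 400 kb of deep intron and near a centromere by their coordinates. Snap25 (chr3L:24074180-24299205) lies in the same part of 3L as lovit (chr3L:25236940-25670980). Also without members were bru3, Ten-a and Rbp6, the last with 151 kb. The replicates' lists also held none in these genes.

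The host genes were then read against lists of pathway genes. Of all protein-coding genes with deep intron 18% were hosts, at 30.0 members per Mb. Among the 1687 of these 2901 genes with up to 5 kb of deep intron 6.76% were hosts. In the longer bins 28.9% to 41.1% were. The lists were not matched for intron length, so a share above 18% is not thereby above genes of like length. In the ecdysone response list, the steroid programme of larval moults and metamorphosis, 14 of 22 genes with deep intron were hosts (63.6%), at 78.1 per Mb. The replicates' lists gave 13, 14 and 13. Hr3, Hr4 and Eip75B had the highest signals. The receptor gene EcR itself held 2 members at up to 326, and the early genes br and Eip74EF 1 each at 233 and 248, close to the lowest IDR signal of 218. Eip93F held none in any list, and Eip78C held none in the IDR list but 0, 2 and 1 in the replicates' lists. The bZIP and clock list had 10 hosts of 16 (62.5%), led by Pdp1, REPTOR and Atf3, at 186 per Mb, and the replicates held 9, 8 and 10. Both shares lay above the background in each replicate. Counting only members found in both other replicates, without replicate 1, 2 or 3 in turn, left 7, 8 and 9 ecdysone hosts and 7, 8 and 7 bZIP and clock hosts, with 12.7%, 13.9% and 13.5% of all genes as background.

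In the Egfr pathway list, 7 of 14 were hosts (50%), and each replicate held 7. They include the kinase gene Raf (1424), the secreted inhibitor gene aos (argos, 645), the repressor gene aop (573) and the activator gene pnt (547), while the receptor gene Egfr held none. In the Dpp list 5 of 11 were hosts (45.5%), with Dad (2299), the receptor gene tkv (1373), shn (600) and the antagonist gene sog (508) among them and the ligand gene dpp not. The tkv maximum ranked 517, 1348 and 146, so the replicates placed it far apart. In the Wingless list 5 of 18 were hosts (27.8%), led by the receptor gene fz2 (1162), the inhibitor gene nkd (959) and the kinase gene sgg (645), and wg held none. In the Notch list 3 of 11 were hosts (27.3%), the coactivator gene mam (1234), the receptor gene N (704) and numb (292), and Delta and Ser held none. These shares rest on few genes, and dpp held a summit in the list of replicate 2.

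Zinc finger regulators had 15 hosts of 32 (46.9%, at 99.2 per Mb), led by sbb, luna and ush. Cyclic nucleotide signalling had 6 of 19 (31.6%), led by Pde11, dnc and Pka-C1, and muscle genes had 6 of 20 (30%), led by Mef2, Tm1 and Zasp52. Homeodomain factors had 11 of 50 (22%), led by hth, cad and ct. Axon guidance and adhesion genes had 13 of 54 (24.1%) but only 9.32 members per Mb of their 2.36 Mb, and ion channel genes had 6 of 37 (16.2%) at 9.30 per Mb. The axon guidance hosts numbered 9, 17 and 10 in the replicates, so replicate 2 held the most. Its gene kirre, with 262 kb of deep intron, held 4 members at up to 277, and 4, 10 and 1 in the replicates. Counting only members found in both other replicates, without replicate 1, 2 or 3 in turn, left 3, 3 and 6 muscle hosts and 9, 8 and 9 axon guidance hosts. Genes of a list differ in intron length, so the shares and the densities rank the lists differently.

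The summits sat in a dip of GC content. Within 50 bp of the summit, 35.7% of bases were G or C (replicates 36.1%, 34.8% and 36.8%), against 41.5% in windows of equal length centred 250 bp to each side and 40.2% in tiles of deep intron of that length. Near-TSS intronic summits had 35.8%, promoter summits 37.2%, intergenic ones 35.3% and exonic ones 39.1%, with flanks of 42.0%, 42.5%, 41.4% and 42.7%. The dip was therefore present in each class.

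**Figure D5:**
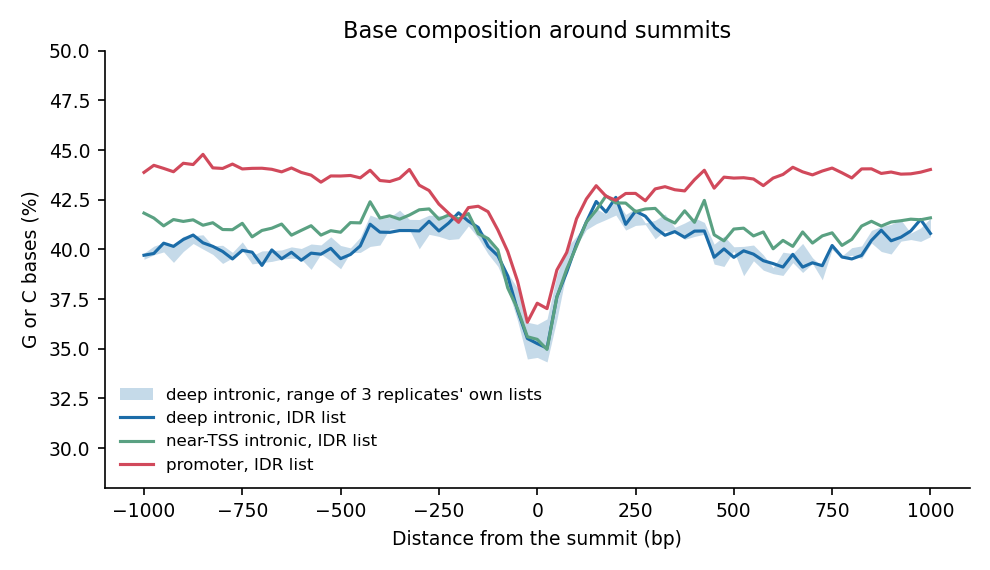
Share of G or C bases (%, y axis) by distance from the summit (bp, x axis) for deep intronic, near-TSS intronic and promoter IDR summits; the shaded band is the range of the 3 replicates' own deep intronic summits. All 3 lines fall to a minimum around the summit, and promoters lie above both kinds of intron farther out.

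Short words were counted within 50 bp of the summit on both strands, as descriptions of sequence. AGATAA or TGATAA occurred at 278 members (25.4%, interval 22.9% to 28.1%), and in the replicates' lists at 25.5%, 22.3% and 25.4%. The share was 15.7% in the flanks and 11.8% in deep intron tiles. It was 27.2% at near-TSS intronic, 23.5% at intergenic, 26.6% at exonic and 18.4% at promoter summits. Since the words are rich in A and T, windows of like composition were compared. With GC between 28.7% and 40.6%, the interquartile range of the members, 160 of 592 members held the word (27.03%, interval 23.6% to 30.7%) and 14.5% of the tiles. In the 4 signal groups, from the strongest, the shares were 23.7%, 23.4%, 28.6% and 26.0%, with overlapping intervals.

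TAATTA occurred at 110 members (10.1%, interval 8.41% to 11.98%), against 6.03% in flanks and 7.37% in tiles. In the windows of like GC it was 10.8% (interval 8.56% to 13.6%) against 8.72% of tiles, which lies inside the interval. Promoter summits held it at 9.56%. The GAGA word GAGAG stood at 11.4% of members, 15.2% of flanks and 11.5% of tiles, CACACA at 7.40%, 12.1% and 9.36%, and the GC box GGGNGGG at 2.74%, 5.48% and 3.65%. The AP-1 word TGANTCA was at 2.93% of members, 3.20% of flanks and 2.00% of tiles. Shares in members, flanks and tiles were 3.38%, 3.75% and 3.52% for the E-box CAGCTG and 0.823%, 1.78% and 1.09% for the E-box CACGTG. In the same order, the Zelda word CAGGTA stood at 1.83%, 1.92% and 1.92%, and the CRE word TGACGT at 1.74%, 2.56% and 2.05%. The Brinker and Mad words GGCGCC with GGCGCT stood at 2.74%, 3.88% and 3.45%. The nuclear receptor half-site AGGTCA was at 1.55% of members and 2.52% of tiles. In the windows of like GC, GAGAG stood at 10.98% of members and 9.61% of tiles, the GC box at 1.01% and 1.13%, and CACACA at 6.59% and 8.05%. There the AP-1 word was at 4.05% of members (interval 2.74% to 5.96%) and 2.17% of tiles. CAGCTG was at 3.89% (interval 2.60% to 5.76%) and 2.23%, so both tile shares lay below the interval. Over all members, neither word was more frequent than in the flanks, at 2.93% against 3.20% and 3.38% against 3.75%. Flanks were not compared at like GC.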

How the data were processed

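Peak lists of 3 ChIP-seq libraries (biological replicates 1 to 3) were used, with the pooled list and the IDR list. Per the text notes deposited with the lists, replicate and pooled peaks were called against a control, not analysed here. The peak caller and the aligner are unknown, since neither labels nor notes name them. The assembly is dm6, per the labels. The signal value, a score, was deposited by the authors and was used only to rank and describe. The −log10 q values they deposited stand at 4.27 for every IDR peak and were not used. The summit offsets are as deposited. Replicate and pooled lists hold 30000 peaks each, and a comparison showed the 7201 IDR peaks to be the strongest pooled peaks. Depth is unknown, since the files hold no read counts.

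Genes came from Ensembl release 115 and sequence from RefSeq, both of dm6, without transposons, for chromosomes X, 4, 2L, 2R, 3L and 3R. Replicate lists were set to 7201 peaks by signal. Matches required summits within 100 bp. Intervals are 95% Wilson intervals. Tools were scipy 1.17.1, pandas 2.3.3, numpy 2.4.6 and matplotlib 3.10.9 under Python 3.11.15, and the classification and matching were tested on simulated summits. Classes were compared by exact sign-flip tests over replicates. Named genes are the hosts of the 25 strongest members, the 20 hosts with most members, hosts of the 5 largest clusters, the 3 strongest hosts of each gene list, members at the distance limit, and a few others chosen after their values were seen. Members, gene lists and words were chosen with earlier results of these data known. Alternative limits, windows and lists were tried. The result of 1 gene list is not reported here.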

Additional observations from a re-analysis of the deposited data

How the results depend on the processing

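With start sites over 2000 bp away the deep intronic share was 20.6%, and over 5000 bp away 657 summits (9.12%) in 330 host genes met the rule. The stronger 3600 IDR peaks held 479 deep intronic summits, 13.3% of its summits and 13.3 per Mb. The mean share found in a replicate was 66.0% within 50 bp, 83.0% within 250 bp and 93.7% against all peaks of each replicate list, and 74.6% to 77.5% with each replicate left out. Against all peaks, the difference in share found became 3.13 points from promoters (exact permutation p = 0.25), 0.76 from near-TSS introns and 0.26 from intergenic summits. With each replicate left out, the difference ran from −4.58 to 2.03 points from promoters, from −3.04 to −0.20 from near-TSS introns and from −2.43 to 0.87 from intergenic summits. It turned positive from promoters without replicate 1 (2.03) and without replicate 3 (1.62), and from intergenic summits without replicate 2 (0.87). The share with another member was 43.6% within 2 kb, 66.4% within 10 kb, 54.9% with 1 summit per interval, 52.9% over members found in at least 2 replicates and, added after the data were seen, 41.9%, 48.2% and 42.5% over the 608, 701 and 664 members found in both other replicates, without replicate 1, 2 and 3 in turn. Without replicate 3, GC was 34.1%. At 25 bp and 100 bp to each side, TAATTA stood at 5.30% and 17.3% of members and the GATA words at 14.0% and 42.3%. GC was 37.1% at 100 bp. The causes were not tested beyond the wider or narrower windows and limits themselves. Of 69 alternatives over 13 results, 40 were labelled as unchanged, 23 as moved and 6 as reversed in sign. Class differences were judged by sign alone, and the median signal by an interval from 323 to 349. The other results were judged by the replicate spread or by 1.5 times the count. The class differences are taken within each replicate, and with 1 group of samples there is no second group to pair with it. Depth is unknown, so a summit that is not listed in a replicate is not shown to be absent there.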
